A study of Mus musculus with 2 samples.

Results

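Venous endothelial cells, the cells that line the veins of the lung, were chosen by their own UMI counts from 2 single-cell RNA libraries. A cell was counted as venous when it held at least 1 UMI (unique molecular identifier, 1 counted transcript) of the endothelial cadherin gene Cdh5, at least 3 of the 6 genes Slc6a2, Prss23, Selp, Cytl1, Car8 and Cpe, and fewer than 3 of the lymphatic genes Prox1, Mmrn1, Ccl21a, Reln and Flt4. This gave 223 cells (128 donor and 95 recipient) of the 8297 that passed the quality filter and of 10103 cell barcodes in all.

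The lungs came from C57Bl mice that had received a single-cell suspension of lung cells carrying the red fluorescent reporter tdTomato, and were taken 6 months after that transplant. Lungs of 3 such chimeric mice were dissociated, pooled and sorted into live CD45-negative cells (CD45 marks leukocytes) with tdTomato, the donor library, and without it, the recipient library, and both were run on the 10x Genomics platform. Recipient cells are described as C57BL, the labels give no strain for the donors, and neither the dose of cells nor the preparation of the recipients is given there. Both libraries therefore came from the same pooled chimeric lungs. Each group is 1 library of pooled animals without a replicate, so no test was possible between the groups, and the choice of cells by their own transcripts leaves the contrast with other endothelium as a description. All intervals are exact 95% intervals that cover counting error only, and where values stand as a pair the first is of the donor library and the second of the recipient library.

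Veins collect blood behind the capillary bed, and their lining is the site where leukocytes usually leave the blood. Venous endothelium carries adhesion molecules and von Willebrand factor in storage granules, and its identity is held by the nuclear receptor Nr2f2 (COUP-TFII), which restrains Notch signalling, the programme of arteries. In the lung, veins return oxygenated blood to the left heart, and most of the remaining endothelium consists of general capillary cells and of aerocytes, the large flat capillary cells of gas exchange.

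The donor library held 6319 barcodes with 37997269 UMIs and the recipient library 3784 with 26201315. After the filter, 4756 donor and 1523 recipient cells had Cdh5. Venous cells held 1278194 and 859618 UMIs, with a median of 9356.5 (range 1389 to 25288) and 8178 (range 2965 to 25202) per cell, more than the 6226.5 and 6617.5 of the other endothelial cells. Of the barcodes, 816 occurred in both libraries, and only the copy with more UMIs was used. Among venous cells, 2 donor and 10 recipient cells carried such a shared barcode.

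The number of donor cells fell with each further rule gene, while 52 of the 95 recipient venous cells had 5 or 6 rule genes. Of cells with Cdh5, 141 donor and 28 recipient cells had 2 rule genes and lay just outside, while 61 and 29 had 3 and lay just inside. A further 30 and 14 cells had 4 rule genes, 27 and 32 had 5, and 10 and 20 had all 6. Cells near the limit thus made up a larger part of the donor venous cells, 61 of 128, than of the recipient ones, 29 of 95. The median depth was higher in cells with 6 rule genes than in those with 3, 8239 and 6670 UMIs at 3 genes against 9902.5 and 10754 at 6. Another 3 donor and 7 recipient cells had 3 or more rule genes but no Cdh5 UMI and were not counted, and no lymphatic cell met the rule.

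**Figure D1:**
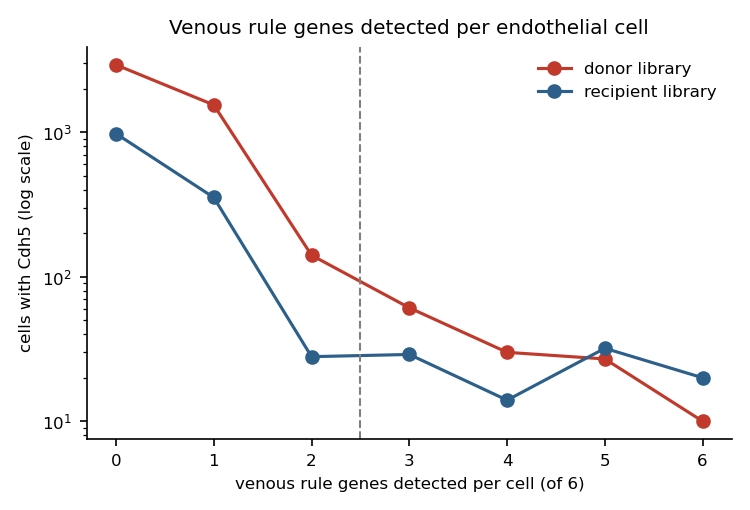
Number of cells with Cdh5 (log scale) by the number of the 6 venous rule genes detected in a cell, for each library. Cells right of the dashed line are the venous cells. Donor counts fall from 141 cells with 2 genes to 10 with 6, while recipient counts are 28, 29, 14, 32 and 20 from 2 to 6 genes.

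Of the markers that name the class, von Willebrand factor (Vwf), the clotting protein that tethers platelets, had no part in the rule. It was detected in 98.4% of donor and 98.9% of recipient venous cells, and in 95.2% and 96.8% when every cell was thinned to 3000 UMIs. Aerocytes held it in 18.9% and 6.90% of cells at median depths of 9006 and 7793 UMIs. General capillary cells held Vwf in 79.3% and 60.6% of cells, or 67.6% and 49.4% at 3000 UMIs, and arterial cells in 91.9% and 69.2%. Detection of Vwf was thus not particular to venous cells. Its level is shared with arteries, at 3389 CPM (UMIs scaled to a total of 1000000 over the cells summed) in donor venous and 3127 CPM in donor arterial cells, and at 3688 and 1817 CPM in the recipient library. The gap junction gene Gja5, which marks arteries and had no part in the venous rule, stood at 1.56 and 18.6 CPM in venous cells. In the 74 donor and 26 recipient arterial cells Gja5 stood at 353 and 160.2 CPM. It helped choose the arterial cells, so its peak there is in part set by that choice.

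The rule genes themselves, given here only as a description of what chose the cells, were detected unevenly. Prss23, a secreted serine protease, was found in 98.4% and 97.9% of venous cells, but also in 50.5% and 60.4% of general capillary cells. Slc6a2, the noradrenaline transporter, was found in 79.7% of donor and 65.3% of recipient venous cells and in 0.729% and 0.431% of aerocytes. Selp, the leukocyte adhesion receptor P-selectin, was found in 35.2% and 65.3%, or 23.4% and 48.9% of venous cells at 3000 UMIs. In aerocytes it was found in 0 of 1647 donor cells (interval up to 0.224%) and in 0.287% of 696 recipient cells. The levels of Slc6a2 were 843 and 505 CPM in venous cells against 7.93 and 3.16 CPM in all other cells with Cdh5, and those of Selp were 254 and 596 against 1.99 and 2.04 CPM. Cytl1, a small secreted protein, stood at 372 and 641 CPM, Car8, which lowers the sensitivity of the calcium-release channel Itpr1 to its ligand, at 261 and 359 CPM, and Cpe, a peptide-processing carboxypeptidase, at 189 and 434 CPM. Recipient cells were higher than donor cells in 5 of the 6 rule genes and donor cells in Slc6a2.

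**Figure D2:**
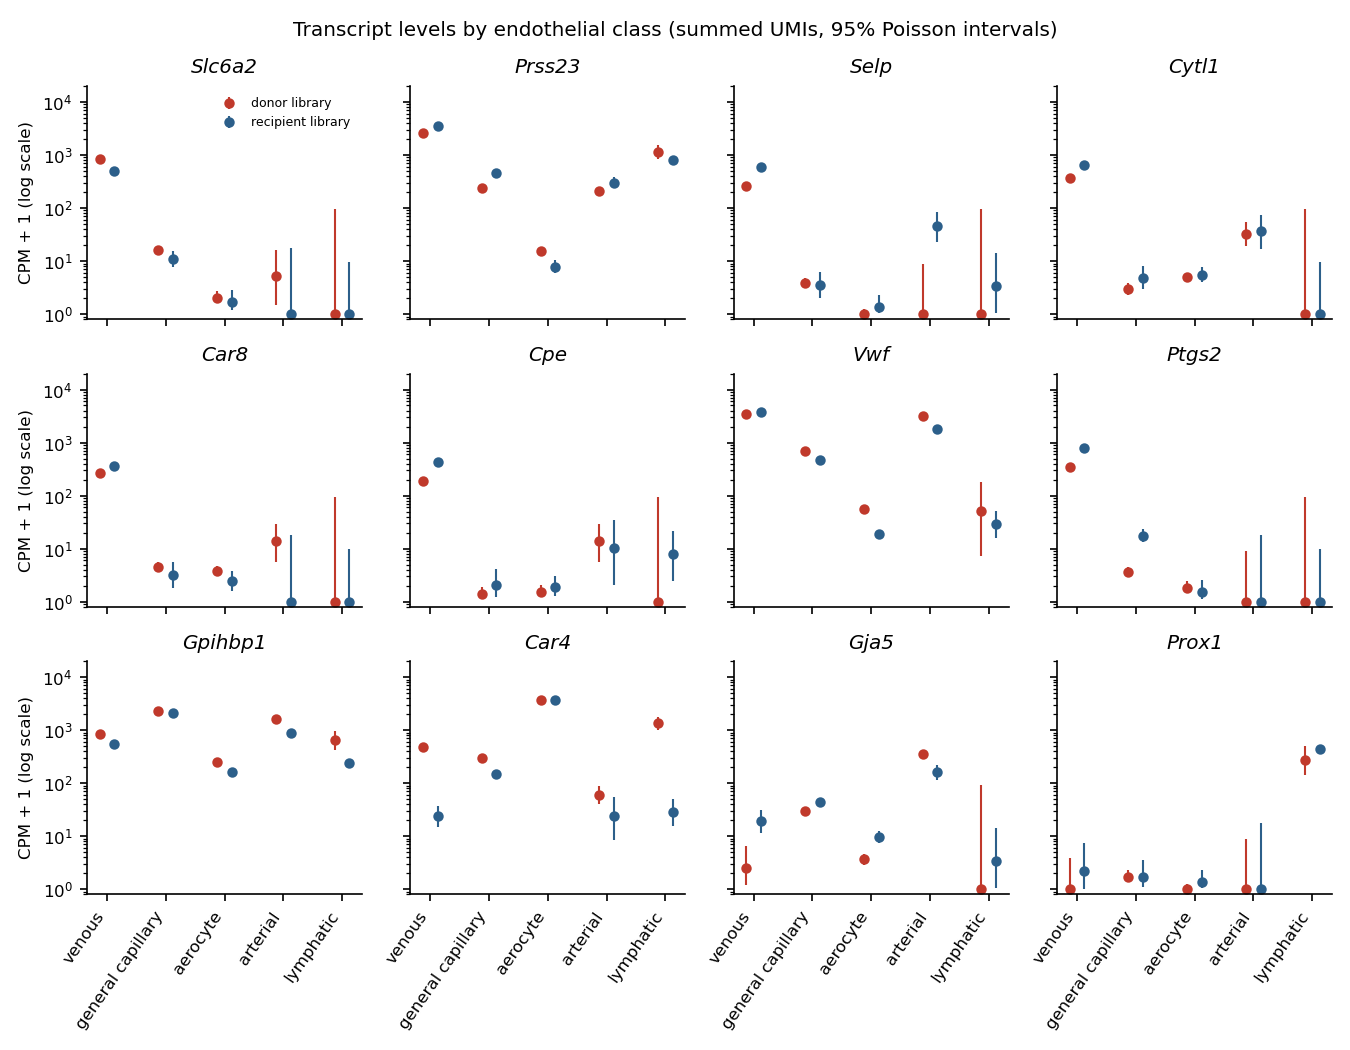
Levels of 12 genes (CPM plus 1, log scale) in venous, general capillary, aerocyte, arterial and lymphatic cells, with points for each library and bars for 95% Poisson intervals of the summed UMIs. The 6 rule genes, Vwf and Ptgs2 are high in venous cells, Gpihbp1 peaks in general capillary, Car4 in aerocyte, Gja5 in arterial and Prox1 in lymphatic cells. The rule genes, Gpihbp1, Car4, Gja5 and Prox1 helped choose these classes, so their peaks are in part set by that choice.

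The start regions of 2 genes that the results turn on are shown, Selp because it is the adhesion receptor among the rule genes and Ptgs2 because it led the genes outside the rule. The sequences are from RefSeq (GRCm38.p6, the same build as mm10), plus strand, from 250 bases before the annotated transcription start to 30 bases of the first exon. Selp lies at chr1:164115014-164115293 and Ptgs2 at chr1:150099781-150100060. Capitals mark matches, on either strand, to 3 motifs searched: AGGTCA, the core hexamer of nuclear receptors such as Nr2f2 (read here as TGACCT, since the match is on the minus strand); GGAAGT, a core of ETS factors, a family with central members in endothelium; and CACGTG, the E-box of basic helix-loop-helix factors.
Selp: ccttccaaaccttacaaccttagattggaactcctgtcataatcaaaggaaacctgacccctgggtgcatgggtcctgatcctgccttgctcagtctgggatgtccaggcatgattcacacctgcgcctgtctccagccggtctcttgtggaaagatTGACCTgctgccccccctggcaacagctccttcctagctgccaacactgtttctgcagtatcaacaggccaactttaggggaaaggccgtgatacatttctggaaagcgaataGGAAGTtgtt
Ptgs2: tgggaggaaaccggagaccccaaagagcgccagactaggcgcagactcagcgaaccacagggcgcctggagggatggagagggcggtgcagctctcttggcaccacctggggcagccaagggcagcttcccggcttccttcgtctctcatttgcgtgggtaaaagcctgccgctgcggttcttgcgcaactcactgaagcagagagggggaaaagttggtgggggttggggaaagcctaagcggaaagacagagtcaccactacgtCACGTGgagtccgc
In Selp the AGGTCA match begins 93 bases before the start and the GGAAGT match at base 21 after it, and in Ptgs2 the CACGTG match begins at base 17. No match overlapped another. Of 32851 such windows in the table, 15.3% held AGGTCA, 22.3% GGAAGT and 6.79% CACGTG. Among the windows of the 6 rule genes and the 20 leading genes outside the rule, of which 16 genes with 26 windows were in the table, 5, 5 and 1 windows held them. These matches describe letters in a window and nothing more.

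Venous cells were 2.69% (128 of 4756, interval 2.25 to 3.19) of donor cells with Cdh5 and 6.24% (95 of 1523, interval 5.08 to 7.57) of recipient cells with Cdh5. At 3000 UMIs in every cell the shares were 1.62% (interval 1.27 to 2.03) and 4.60% (interval 3.54 to 5.87). Of all cells after the filter, endothelial or not, they were 2.59% and 2.83%. The share among endothelial cells moves with the number of general capillary cells, which were 54.3% of donor and 29.0% of recipient endothelium. All of these are shares of sorted and recovered cells.

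Venous cells also carried genes of their neighbours. At least 3 of 6 general capillary genes were detected in 75.8% of donor and 60.0% of recipient venous cells, with a median of 3.5 and 3 genes per cell against 5 in general capillary cells of both libraries. At least 3 of 6 arterial genes were found in 10.9% and 15.8%, with a median of 1 in both libraries. At least 3 of 6 aerocyte genes were found in 15 donor and 0 recipient venous cells, and the 15 had a median of 18773 UMIs against 8724 in the other donor venous cells. Another filter left out 9 donor and 9 recipient cells with 3 or more genes and 10 or more UMIs of 1 non-endothelial list. Without either kind, 108 donor and 86 recipient cells remained, and results for these, chosen after the data had been seen, are given below as those without mixed cells.

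Markers of non-endothelial cells were spread unevenly over venous cells. Of 8 leukocyte genes, Ptprc (CD45), Cd52, Tyrobp, Cd3e and Cd79a were at 0 in both libraries. Fibroblast genes had 37 UMIs in donor and 1350 in recipient venous cells, of which 1 cell held 1050 (77.8%). Epithelial genes had 567 and 1410 UMIs, with 62 of the first (10.9%) and 1219 of the second (86.5%) in 1 cell. Smooth muscle genes had 228 and 204 UMIs, of which 1 cell held 8.77% and 12.3%, and pericyte genes 132 and 236 UMIs, of which 1 cell held 8.33% and 40.3%. Red cell and platelet genes had 452 UMIs in the donor library, 173 of them in 1 cell, and 11 in the recipient library. Among 10 genes of the heart muscle that sheathes large pulmonary veins in mice, Myh6, Tnnt2, Myl7, Ttn and Sln were at 0 in both libraries.

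Against all other cells with Cdh5, and with 12261 genes measured, 313 genes (2.55%) were higher in venous cells and 399 (3.25%) lower. A gene was counted when it was at least 2-fold apart the same way in both libraries with both intervals excluding 1. The median log2 ratio over all genes was -0.07 and -0.13 in the donor and recipient libraries. Without mixed cells the counts were 344 (2.81%) and 510 (4.16%) of 12246 genes, sharing 293 and 354 with the first counts. Mixed cells were set aside among venous cells only, and no such filter was applied to the other endothelial cells. The part of this uneven filter in the counts was not tested. Of 17 further genes known from veins, 13 were higher and 1 was lower (Flrt3), with a median log2 ratio of 3.29 and 2.83. This list and those below were chosen with earlier results of these data known, so their counts are descriptions and no independent support.

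**Figure D3:**
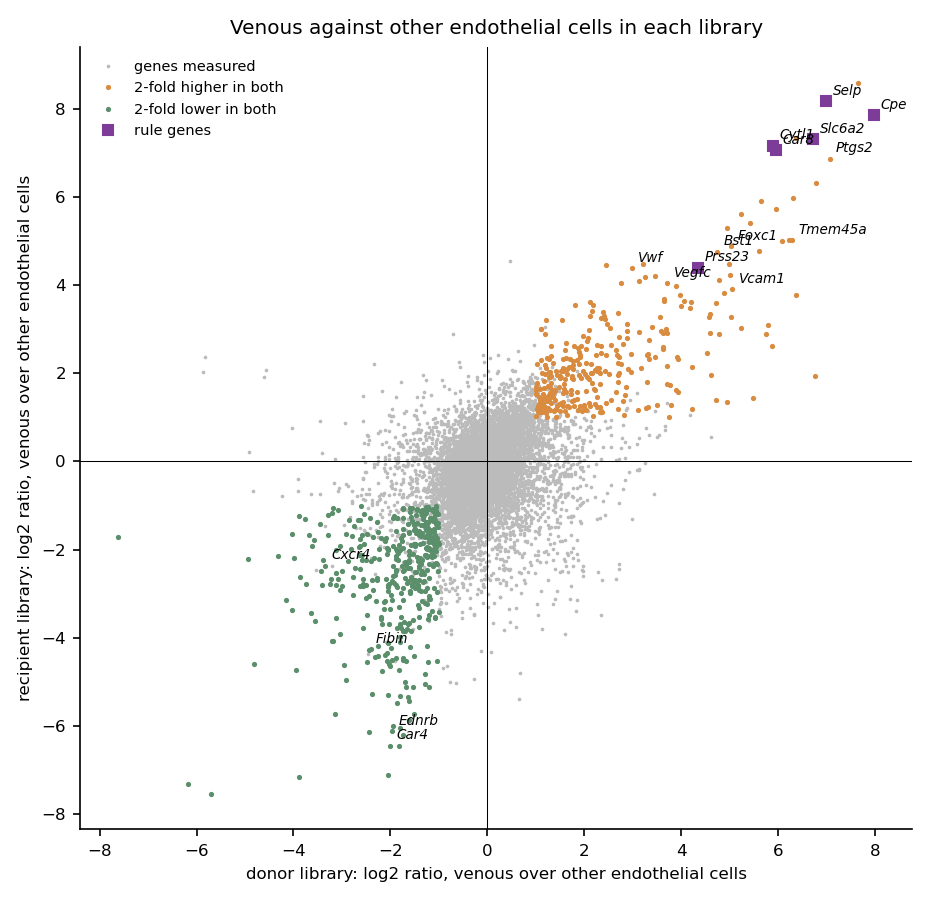
Log2 ratio of venous over other endothelial cells for each gene measured, donor library on the x axis and recipient library on the y axis. Orange points are at least 2-fold higher and green points at least 2-fold lower in both libraries, and purple squares are the rule genes. Ptgs2 lies among the rule genes at the upper right, Car4 and Ednrb at the lower left.

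Regulators came first in the order of roles. Foxc1, a forkhead factor of vessel development, stood at 67.3 and 107 CPM in venous and 2.05 and 3.62 CPM in other endothelial cells, 32.8-fold (23.7 to 45.8) and 29.6-fold (20.1 to 44.2) higher, and 49 donor and 57 recipient venous cells held it. Nr2f2, the venous regulator, stood at 185 and 309 CPM, 13.5-fold (11.5 to 15.9) and 2.01-fold (1.76 to 2.29) higher than in other endothelial cells. In the recipient library Nr2f2 stood at 882 CPM in the 66 lymphatic cells, 63.4 CPM in general capillary cells and 73.5 CPM in aerocytes. Over all non-venous endothelial cells it stood at 154 CPM there against 13.7 CPM in the donor library. The recipient value also takes in 26 arterial cells and 198 cells of no class, whose levels are not given here. The part of each class in that value was not tested. Without mixed cells Nr2f2 was below 2-fold in the recipient library and was not counted. Fli1, an ETS factor of all endothelium, was 2.18 and 2.44-fold higher, so that 3 of 23 endothelial transcription factors measured were higher. The 4 that were lower were Tbx2 and Tbx3, T-box factors, Meox1, a homeobox factor, and Prdm1 (Blimp-1), at 18.0 and 2.33 CPM against 74.8 and 92.0 CPM. Sox17 (129 and 116 CPM), Erg (79.8 and 64.0 CPM) and the flow-responsive Klf2 (2202 and 2366 CPM) were not counted either way.

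Adhesion receptors of leukocytes were among the higher genes. Vcam1, the counter-receptor of leukocyte integrins, stood at 764 and 1583 CPM against 22.9 and 105 CPM, 33.3-fold (30.3 to 36.7) and 15.0-fold (13.9 to 16.3) higher. Arterial cells held it too, at 334 and 805 CPM. Sele (E-selectin), which slows rolling leukocytes, stood at 40.7 and 59.3 CPM, but only 7 donor and 13 recipient venous cells held it. Jam2, a junction molecule that binds lymphocytes, was 4.28 and 7.86-fold higher. Icam1 was at 1151 and 1537 CPM and was not counted, with log2 ratios of 0.60 and 1.17. The stem-cell and endothelial sialomucin Cd34 was lower, at 236 and 234 CPM against 481 and 533 CPM. In all 5 of 14 adhesion genes measured were higher, Selp of the rule included, and 1 was lower, with a median log2 ratio of 0.44 and 0.06.

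Both atypical chemokine receptors on the lists, which bind chemokines without the usual signalling, were higher. Ackr3, a scavenger of Cxcl12, stood at 987 and 1161 CPM in 118 donor and 88 recipient venous cells, 6.59-fold (6.19 to 7.01) and 7.13-fold (6.59 to 7.71) higher than elsewhere in the endothelium. Ackr1, the chemokine carrier of postcapillary venules, stood at 49.3 and 121 CPM and was found in only 11 donor and 15 recipient venous cells, with 56.7% of the recipient UMIs in 1 cell. Cxcr4, the signalling receptor of Cxcl12, was lower, at 7.82 and 11.6 CPM against 79.3 and 59.9 CPM, 10.1-fold (5.50 to 21.2) and 5.15-fold (2.78 to 10.8). Of 19 cytokine and chemokine genes measured, 4 were higher and 1 was lower, with a median log2 ratio of 0.63 and 0.40. The higher ones included the alarmin Il33 (23.5 and 36.1 CPM) and Il6st, the shared receptor chain of the interleukin 6 family (530.4 and 917 CPM), and the lower one was the membrane chemokine Cx3cl1.

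Genes of granules and clotting were split. Vwf was 7.95-fold (7.68 to 8.22) and 20.8-fold (19.7 to 22.1) higher, Rab27a, which ties Vwf granules to the cell edge, 3.95 and 7.16-fold, and Procr, the protein C receptor, 12.8 and 8.02-fold higher at 88.4 and 112 CPM. Entpd1 (CD39), which removes the platelet agonist ADP, was 2.42 and 3.79-fold higher. The plasminogen activator gene Plau was lower, at 12.5 and 3.49 CPM against 27.4 and 36.5 CPM, as was the thrombin receptor F2r, by 2.64 and 2.99-fold. This made 5 of 17 genes higher, Selp of the rule included, and 3 lower, with a median log2 ratio of 0.44 and -0.25.

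Ptgs2 led the genes named outside the rule. Ptgs2 (cyclooxygenase 2, which makes the precursor of prostaglandins) had 434 UMIs in 51 donor venous cells and 673 UMIs in 54 recipient venous cells, 339.5 and 783 CPM against 2.52 and 6.68 CPM in other endothelial cells, 135-fold (106 to 172) and 117-fold (91.8 to 152) higher. At 3000 UMIs it was found in 32.3% and 47.9% of venous cells, and without thinning in 0.425% and 0.431% of aerocytes. Another 3 genes of prostanoid synthesis, named here for their role beside Ptgs2, were higher. Pla2g4a, the phospholipase that frees arachidonic acid, was 31.7 and 22.5-fold higher at 69.6 and 102 CPM, Ptgs1 (cyclooxygenase 1) 3.73 and 4.62-fold higher at 222 and 219 CPM, and Ptgis, the prostacyclin synthase, 9.95 and 5.41-fold higher at 326 and 514 CPM. Nos3, the endothelial nitric oxide synthase, stood at 45.4 and 86.1 CPM, 4.52-fold (3.36 to 5.99) and 11.7-fold (8.43 to 16.3) higher. In the vessel tone list 5 of 20 genes were higher and 5 lower, with a median log2 ratio of -0.45 and -0.53, among the latter Ednrb, the endothelin B receptor of aerocytes, and the guanylate cyclase subunits Gucy1a1 and Gucy1b1, which pericytes express strongly.

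Beside Slc6a2, the handling of amines differed little. Maob, a monoamine oxidase, was higher at a low level (14.9 and 17.4 CPM), while Maoa (121 and 79.1 CPM) was not counted. The serotonin transporter Slc6a4 was lower, at 6.26 and 0 CPM against 17.3 and 22.9 CPM. This left 2 of 7 genes higher, Slc6a2 included, and 1 lower, with a median log2 ratio of 0.28 and 0.02. Of 12 genes of calcium release and entry, Car8 of the rule and the channel Trpv4 (14.1 and 18.6 CPM) were higher and none was lower, with a median log2 ratio of 0.23 and 0.25. Car8 acts on Itpr1, which stood at 28.2 and 47.7 CPM and was not counted.

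Genes of the vessel wall were split. Fbln5, which anchors elastin to cells, stood at 382 and 389 CPM, 18.6 and 4.39-fold higher, Eln (elastin) at 275 and 352 CPM, 7.16 and 2.86-fold higher, and Ltbp4, a latent TGF-beta binding protein of elastic fibres, at 264 and 407 CPM, 4.11 and 2.24-fold higher. The proteoglycan Bgn was 14.9 and 3.06-fold higher. The recipient ratios of Fbln5, Eln and Bgn were the smaller ones, and the other endothelial cells of that library held more of each transcript than those of the donor library, for Bgn 26.4 and 270.4 CPM. Sparc, the laminin chain Lamc1, the elastic fibre gene Emilin1 and Postn were lower. In all 5 of 22 genes were higher and 4 lower, with a median log2 ratio of 0.67 and -0.12. The other endothelial cells also held fibroblast genes, at 43.3 and 2415 CPM in sum, and pericyte genes, at 141 and 975 CPM. In venous cells these sums were 28.9 and 1570 CPM and 103 and 275 CPM. The part of such transcripts in the ratios of wall genes was not tested.

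Of the 20 genes with the largest ratios outside the rule, several have no list above. Vegfc, the growth factor of lymphatic vessels, stood at 388 and 435 CPM, 13.2-fold (11.8 to 14.7) and 16.6-fold (14.2 to 19.5) higher. Bst1 (CD157), a surface enzyme that makes cyclic ADP-ribose, stood at 187 and 151 CPM in 91 donor and 56 recipient venous cells, 26.8 and 27.2-fold higher. Tmem45a, a membrane protein, was 78.4 and 32.6-fold higher, Nox1, an NADPH oxidase, 31.0 and 39.6-fold, Cyp1a1, the oxidase induced by the aryl hydrocarbon receptor, 48.9 and 27.5-fold, and Itgb4, the integrin of hemidesmosomes, 27.8 and 17.3-fold. Ctsh, a lysosomal protease, stood at 317 and 749 CPM, Cygb, a globin, at 131 and 369 CPM, and Ch25h, which makes 25-hydroxycholesterol, at 116 and 135 CPM. Samd5 (11.0 and 18.6-fold), Amigo2, an adhesion protein (12.6 and 12.8-fold), Cthrc1, a secreted protein of wound repair (18.4 and 12.3-fold), Chn2, a Rac-inactivating protein (16.0 and 11.6-fold), and Dnm3, a dynamin (24.4 and 10.1-fold), were higher as well. Igfbp5, an insulin-like growth factor binding protein, was 55.5 and 8.58-fold higher and Fabp4, a fatty acid binding protein, 9.59 and 18.3-fold, but these came from 35 and 15 donor and 41 and 18 recipient cells.

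Genes of the other vessel types were lower throughout for aerocytes and in part for the rest. Of 20 arterial and Notch genes, with a median log2 ratio of -0.69 and -0.28, 4 were lower: Efnb2, the arterial ephrin (57.1 and 76.8 CPM against 304 and 187 CPM), Dll4, the arterial Notch ligand (4.74 and 3.03-fold lower), the Notch target Hey1 (3.61 and 2.45-fold lower) and the netrin receptor Unc5b. Another 4 of this list were higher, namely Fbln5 and Ltbp4 and the Notch ligands Dll1 (134 and 111 CPM, 3.84 and 6.11-fold) and Jag1 (58.7 and 76.8 CPM, 2.55 and 2.91-fold). The counter-receptor of Efnb2, Ephb4, a venous gene, stood at 184 and 227 CPM with log2 ratios of 0.68 and 1.40 and was not counted.

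Of 12 general capillary genes, with a median log2 ratio of -0.59 and -0.56, 4 were lower, namely the stem cell factor receptor Kit (5.12-fold (3.76 to 7.18) and 3.31-fold (2.17 to 5.30)), the lipoprotein lipase gene Lpl (6.64 and 5.35-fold), the lipid droplet gene Hilpda (3.74 and 6.02-fold) and Glp1r, the receptor of glucagon-like peptide 1 (2.30 and 3.16-fold). No gene of this list was higher, and Gpihbp1, which carries lipoprotein lipase, stood at 847 and 558 CPM and was not counted. All 10 aerocyte genes were lower, with median log2 ratios of -1.95 and -4.86. The carbonic anhydrase gene Car4 stood at 484 and 23.3 CPM against 1948 and 2037 CPM, and without mixed cells at 43.1 and 20.6 CPM. Of 8 lymphatic genes 3 were lower, and Lyve1, a hyaluronan receptor named for lymphatics, was higher at 1094 and 1303 CPM against 359 and 355 CPM.

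Several of the 10 genes with the smallest ratios are made by other cells. Ager and Cbr2 are epithelial genes, Lyz2 is known from macrophages and Spp1 (osteopontin) is a secreted protein of several cell types. Spp1 stood at 4.69 and 269 CPM in venous, 143 and 1249 CPM in other endothelial and 5755 and 4577 CPM in non-endothelial cells. Whether free RNA of such cells takes part in these ratios was not tested. Fibin, Serpina3m, Gpnmb, Lmntd1 and Tbx2, the others beside Cxcr4, were highest in aerocytes, Fibin at 718 and 787 CPM. Fibin and Tbx2 helped choose the aerocytes, so their peaks there are in part set by that choice. Against general capillary cells alone Fibin was 2.36 and 0.75 (log2) higher in venous cells. Aerocyte genes also bore on which cells were classed as general capillary, so this ratio is only described. The donor value includes the 15 venous cells with 3 or more aerocyte genes, and no value without them is given here.

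None of 14 BMP genes, 7 MHC class II genes, 14 MHC class I genes and 7 cell cycle genes was counted as higher or lower. Of 31 interferon response genes, Ifi27l2a and Cxcl10 were higher, and of 21 p53 target genes, Pmaip1 was lower. In the early response list 7 of 24 genes were higher (Fos, Egr1, Egr2, Nr4a1, Myc, Ccn1 and Ccn2), with a median log2 ratio of 0.53 and 1.10. These genes also respond to enzymatic dissociation, Ptgs2 is among the genes induced with them, and the part of dissociation in the level of Ptgs2 was not tested.

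Within the venous cells, genes outside the rule differed with the number of rule genes detected. For this the cells were split, without mixed cells, into 115 donor and 23 recipient cells with 2 rule genes just outside the limit, 51 and 27 with 3, 23 and 13 with 4, and 34 and 46 with 5 or 6. Their median depths ran from 6696 to 9925.5 UMIs in the donor and from 5796 to 9962 UMIs in the recipient library, so depth moved with the number of genes, and its part in the order of cells was not tested. Ptgs2 stood at 23.6, 87.2, 258 and 913 CPM in donor cells with 2, 3, 4 and 5 or 6 rule genes, and at 277, 345, 479.7 and 1201 CPM in the recipient cells. Nr2f2 stood at 46.1, 82.2, 214 and 373 CPM in the donor cells and 236, 169.7, 183 and 363 CPM in the recipient cells. Both genes in the donor library and Ptgs2 in the recipient library were higher at each step, while recipient Nr2f2 was lower with 3 and 4 rule genes than with 2 and highest in the last.

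Vcam1 stood at 182, 506, 596 and 1406 CPM in the donor cells and at 499, 1315, 457 and 2272 CPM in the recipient cells, where the 13 cells with 4 rule genes were low. Ackr3 was at 459, 777, 849.8 and 1613 CPM and 596, 822, 879 and 1547 CPM. Foxc1 was at 18.9, 62.3, 69.6 and 109 CPM and 20.8, 68.9, 126 and 139.6 CPM. Ackr1 and Sele, genes of the venules where leukocytes cross, had 57 of 59 and 37 of 43 donor UMIs in the 34 cells with 5 or 6 rule genes, and 34 of 45 and 34 of 49 recipient UMIs in the 46 such cells. Vwf differed little past the limit, with 2098, 3669.9, 3648 and 4029.7 CPM and 2052, 3596, 4408 and 4120.2 CPM.

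Some capillary genes ran the other way. Glp1r stood at 458, 267, 119 and 17.2 CPM in donor and 589, 143, 91.4 and 19.9 CPM in recipient cells. Gpihbp1 was at 1718, 1479.9, 775 and 333 CPM and 1497, 732, 1165 and 412 CPM. Cxcl12, the ligand of Cxcr4 and Ackr3, was at 452, 204, 134 and 34.4 CPM and 256, 493, 79.9 and 11.1 CPM. The cells with 5 or 6 rule genes thus had the lowest level of all 3 genes in both libraries, and cells with 3 rule genes lay between these and the cells just outside the limit, except for Cxcl12 in the recipient library. Cd93, 1 of the 6 genes that chose the general capillary cells, had no such fall. It stood at 1622, 1851, 1625 and 1610 CPM in donor and 1463, 1262, 1793 and 1418 CPM in recipient cells.

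**Figure D4:**
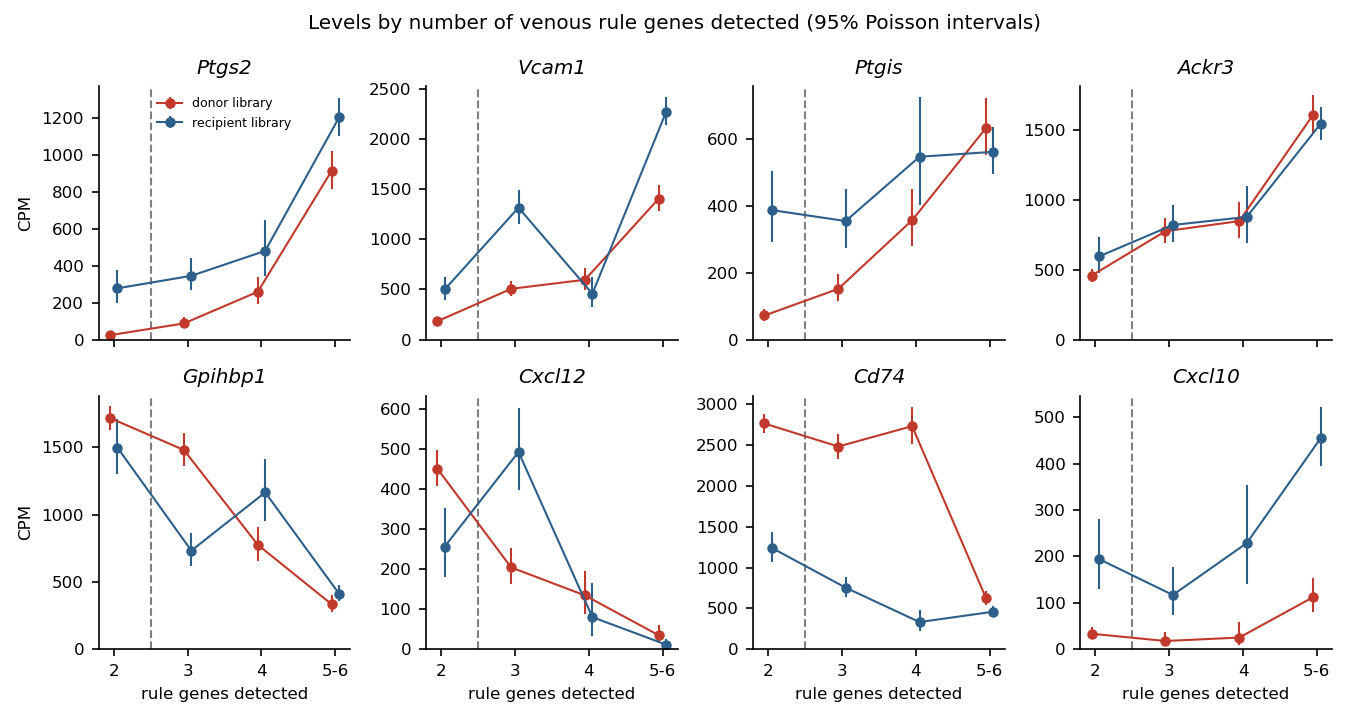
Levels (CPM) of 8 genes outside the rule in cells with 2, 3, 4 and 5 or 6 rule genes, for each library and without mixed cells, with 95% Poisson intervals. The dashed line is the limit of the rule. Ptgs2, Vcam1, Ptgis and Ackr3 are higher and Gpihbp1 and Cxcl12 lower to the right; Cd74 in donor cells drops at 5 or 6 rule genes.

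Between donor and recipient venous cells 8841 genes were measured, and 140 (1.58%) were higher in donor and 151 (1.71%) higher in recipient cells. A gene was counted when its ratio was 2 or more either way and the interval kept clear of 1.5-fold. Without mixed cells the counts were 67 (0.828%) and 51 (0.63%) of 8090 genes, of which 56 and 45 were among the first ones. In the 37 donor and 52 recipient cells with 5 or 6 rule genes alone the counts were 28 and 59 of 6314. When both copies of every shared barcode were left out, the count of genes higher in recipient cells was 83 of 8564. The median log2 ratio over all genes was 0.03. Since the rule genes chose the cells and donor cells had fewer of them on average, ratios are also given for cells with 5 or 6 rule genes; the part of this uneven choice in the other ratios was not tested.

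Several venous genes stood at like levels in donor and recipient cells with 5 or 6 rule genes. Over all venous cells Nr2f2, Foxc1 and Ptgis were 1.68, 1.59 and 1.58-fold higher in recipient cells. In cells with 5 or 6 rule genes and without mixed cells, Vwf stood at 4029.7 and 4120.2 CPM, a donor over recipient ratio of 0.978-fold (0.912 to 1.05). The ratio was 1.03-fold (0.809 to 1.30) for Nr2f2, 1.04-fold (0.931 to 1.17) for Ackr3, 1.03-fold (0.833 to 1.26) for Vegfc and 1.03-fold (0.745 to 1.41) for Bst1. Foxc1 had 0.781-fold (0.508 to 1.19) and Ptgis 1.13-fold (0.937 to 1.35). These 7 intervals include 1 and exclude a 2-fold difference either way.

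Some adhesion and chemokine genes were higher in recipient venous cells. Of 14 leukocyte adhesion genes 3 were (Vcam1, Ackr1 and Selp, the last a gene of the rule) and 0 were higher in donor cells, with a median log2 ratio of donor over recipient of 0.11. Of 18 cytokine and chemokine genes 3 were higher in recipient cells (Ackr1, Cxcl1 and Ccl2) and 1 in donor cells (Il1a), with a median of -0.33. Without mixed cells 2 of 14 adhesion genes and 1 of 16 cytokine and chemokine genes were higher in recipient cells. None of either list was then higher in donor cells. Ackr1 went the other way in cells with 5 or 6 rule genes, at 164 and 75.4 CPM, 2.17-fold (1.40 to 3.42) higher in donor cells. Vcam1 stood at 764 and 1583 CPM, 2.07-fold (1.91 to 2.25) higher in recipient cells, and at 855 and 1805 CPM without mixed cells. Ptgs2 stood at 339.5 and 783 CPM, 2.31-fold (2.04 to 2.61) higher. In cells with 5 or 6 rule genes the recipient excess was smaller, at 1.62-fold (1.45 to 1.80) for Vcam1 and 1.32-fold (1.14 to 1.52) for Ptgs2. Cxcl10, an interferon-induced chemokine of T cells, stood at 52.4 and 293 CPM, 5.59-fold (4.26 to 7.44) higher in recipient cells, with 32.1% of the recipient UMIs in 1 cell, and it was 4.06-fold (2.87 to 5.87) higher in those with 5 or 6 rule genes. Only 15 donor and 23 recipient venous cells held Cxcl10. Nrp2, a semaphorin and Vegfc receptor, was 2.34-fold (1.84 to 2.97) higher in recipient cells.

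The recipient excess of Vcam1 and Nrp2 was not limited to venous cells. The log2 ratio of donor over recipient was -2.39 and -2.56 for Vcam1 and -1.89 and -2.90 for Nrp2 in general capillary cells and aerocytes, while it was -0.35 and 0.02 for Cxcl10. Ptgs2 had -2.67 and 0.68, with few UMIs in either class. Of 24 early response genes none was counted between donor and recipient venous cells, with a median log2 ratio of -0.31.

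MHC class II genes, whose products show peptides to helper T cells and which are induced by interferon gamma, were higher in donor venous cells. Cd74, the invariant chain, stood at 1722 and 527 CPM, 3.27-fold (2.95 to 3.62) higher, H2-Aa at 404 and 154 CPM, 2.63-fold (2.17 to 3.21) higher, and H2-Eb1 at 399 and 145 CPM, 2.74-fold (2.25 to 3.36) higher. H2-DMa, which loads peptides, stood at 116 and 41.9 CPM, so that 4 of 7 genes were counted, with a median log2 ratio of 1.46. H2-Ab1 was at 396 and 215 CPM and was not counted. The 7 genes summed to 3176 and 1177 CPM in venous cells and to 3143 and 1189 CPM in the other endothelial cells, so the donor excess was found there too.

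The size of the class II difference moved with which venous cells were compared. Cd74 stood at 2766, 2484, 2733 and 626 CPM in donor cells with 2, 3, 4 and 5 or 6 rule genes and at 1241, 753, 331 and 459 CPM in recipient cells, a ratio of 1.36-fold (1.12 to 1.66) in the last. H2-Aa, H2-Eb1 and H2-DMa were 1.68-fold (1.20 to 2.36), 1.95-fold (1.41 to 2.73) and 2.20-fold (1.23 to 4.04) higher in donor cells with 5 or 6 rule genes. In the 23 donor and 29 recipient venous cells with fewer than 3 genes of each other endothelial class, Cd74 was higher in recipient cells, with a log2 ratio of donor over recipient of -0.64. None of the 14 MHC class I genes was counted, with a median of 0.21. Of 28 interferon response genes measured, Ifit3 (140.0 and 61.7 CPM) and Zbp1 (40.7 and 12.8 CPM) were higher in donor cells and Cxcl10 in recipient cells.

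Other genes higher in donor venous cells fell into groups of their own. Rgs5, a regulator of G-protein signals known from pericytes, had 118 UMIs in 42 donor venous cells and 0 in the recipient ones, at least 26.5-fold higher against a floor of 3 counts over the group. Of 11 pericyte genes, 7 had UMIs in donor venous cells, 132 in all with the 118 of Rgs5, and Cspg4, Kcnj8, Abcc9 and Trpc6 were at 0. In recipient venous cells 10 had UMIs, 236 in all, and Rgs5 was the one at 0. The part of pericytes in the Rgs5 level was not tested. Without mixed cells Rgs5 had 104 and 0 UMIs, and in cells with 5 or 6 rule genes it was at least 4.32-fold higher. Donor general capillary cells held it at 14.8 CPM and recipient ones at 0.

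Sox11, a transcription factor of embryonic tissues, stood at 126 and 9.62 CPM without mixed cells, 13.1-fold (6.17 to 33.3) higher in donor cells. Lpcat2, an enzyme of phospholipid remodelling, was 8.54-fold (3.72 to 24.1) higher and the tetraspanin Tspan8 4.00-fold (2.96 to 5.49). In cells with 5 or 6 rule genes Tspan8 was 9.55-fold (4.54 to 23.1) higher and Sox11 8.20-fold (2.41 to 43.3). Donor general capillary cells exceeded recipient ones in the same 3 genes, with log2 ratios of 3.48 for Sox11, 1.96 for Lpcat2 and 1.91 for Tspan8. The sterol exporter Abcg1 (4.50-fold (2.20 to 10.4) higher in donor venous cells) and the glucosylceramide synthase Ugcg (3.20-fold (1.99 to 5.35)) had log2 ratios of only 0.23 and 0.16 in general capillary cells. Ankrd37, a hypoxia-induced gene, and Adgra3, an adhesion receptor, were also among the 10 largest donor ratios without mixed cells.

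Donor excess of aerocyte genes was not counted without mixed cells. These genes had in part defined the mixed cells, so its loss was in part set by that filter and is only described. In all venous cells Car4 was 20.8-fold (13.4 to 34.3) higher, Ednrb 15.3-fold (8.19 to 32.4) and Apln, the ligand apelin, 19.1-fold (6.30 to 94.2) higher in donor cells, with 9 of 10 aerocyte genes counted. Without mixed cells 0 of the 4 aerocyte genes measured were counted, Car4 stood at 43.1 and 20.6 CPM and Ednrb at 7.36 and 9.62 CPM, a ratio of 0.765-fold (0.229 to 2.56). The cell cycle inhibitor genes Cdkn2a and Cdkn2b went with them. Cdkn2a had 112 UMIs in 25 donor venous cells and 2 UMIs in the recipient ones, 37.7-fold (10.2 to 315) higher, but 15 and 2 UMIs without mixed cells. Aerocytes of both libraries held Cdkn2a, at 706 and 597 CPM. The others of the 10 largest donor ratios over all venous cells were the phosphatase gene Ptp4a3, which was still counted without mixed cells at 26.3 and 4.12 CPM, and Ccdc184, Chst1 and Rprml, which were not.

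Genes higher in recipient venous cells included transcripts of other lung cells. Scgb1a1, the secretoglobin of club cells, had 3 UMIs in donor and 50 UMIs in recipient venous cells, 24.8-fold (8.01 to 124) higher, spread over 39 recipient cells. Its log2 ratio was -2.74 and -4.84 in general capillary cells and aerocytes, Gsn (gelsolin) had -4.88 and -5.81 and Spp1 -2.71 and -2.93 there. Ager, of alveolar type 1 cells, stood at 11.7 and 54.7 CPM and Apoe, a lipid carrier, at 165 and 532 CPM in venous cells, and without mixed cells Apoe was at 210.3 and 366 CPM and was not counted. The part of free RNA from the recipient library's many non-endothelial cells in these ratios was not tested.

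Anxa1, which limits inflammation, stood at 37.6 and 185 CPM in 27 donor and 52 recipient cells, 4.93-fold (3.55 to 6.95) higher in recipient cells, and 2.20-fold (1.47 to 3.38) in those with 5 or 6 rule genes. Tmem158, a gene induced by Ras, stood at 14.1 and 104 CPM, the basement membrane proteoglycan Hspg2 at 14.9 and 80.3 CPM, the granule tetraspanin Cd63 at 14.9 and 116 CPM and the secreted Ccdc80 at 23.5 and 82.6 CPM. Pthlh, a peptide that relaxes vessels, stood at 14.9 and 61.7 CPM and Bmx, a kinase of arteries, at 16.4 and 59.3 CPM, with 18.9% and 19.6% of the recipient UMIs from 1 cell. Pthlh had log2 ratios of -0.85 and 1.73 and Syn3, a synapsin at 25.2 and 70.1 CPM without mixed cells, 0.07 and 0.37 in general capillary cells and aerocytes. Tppp3, a tubulin-binding protein, and Serpina3f, a protease inhibitor, were counted as higher in recipient cells only without mixed cells. In the list of vessel wall genes 6 of 20 were higher in recipient cells and 3 of 19 without mixed cells, where Fbln2 had 37.1% of its recipient UMIs in 1 cell.

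**Figure D5:**
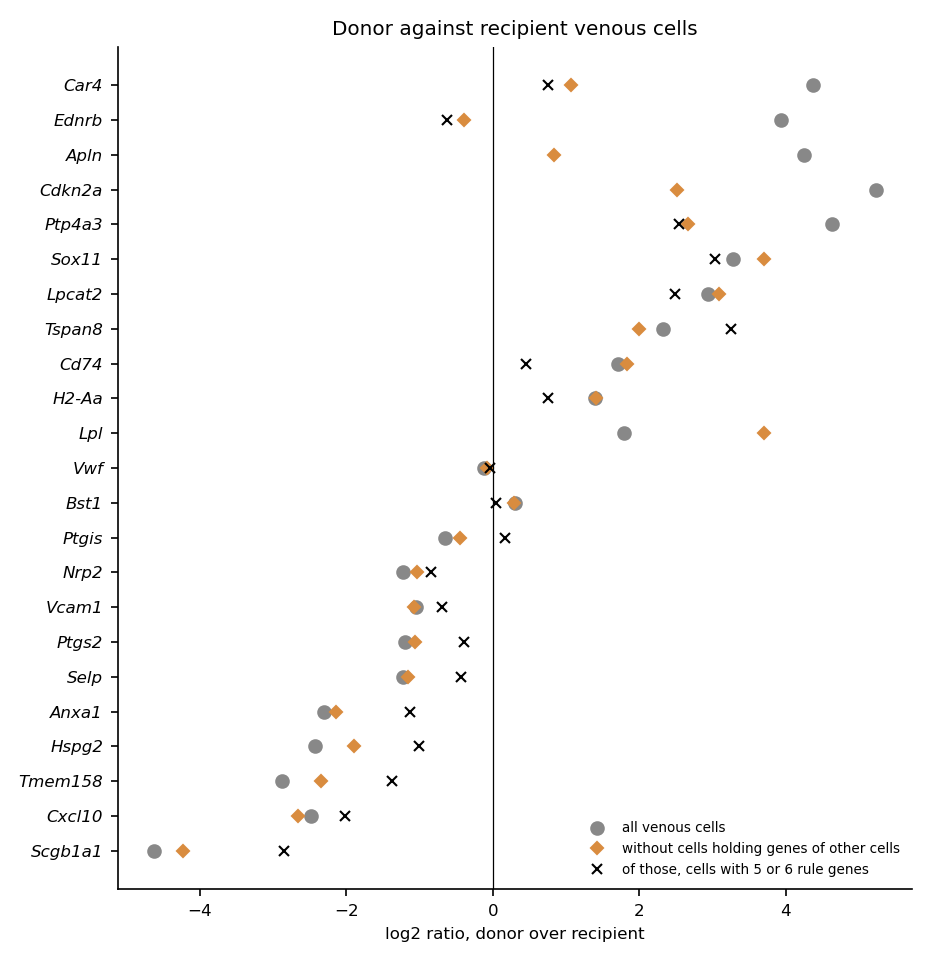
Log2 ratio of donor over recipient venous cells for 23 genes. Circles are all 223 venous cells, diamonds the cells without mixed cells and crosses those of them with 5 or 6 rule genes; Apln, Cdkn2a and Lpl, with at most 3 UMIs per library in those cells, are drawn with no cross. The aerocyte genes Car4, Ednrb and Apln, which in part defined the mixed cells, move toward 0 without those cells. Cd74 moves toward 0 with 5 or 6 rule genes, and Vwf and Bst1 lie near 0 throughout. Selp is a gene of the rule.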

How the data were processed

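The authors deposited raw UMI counts of both libraries as filtered gene-by-barcode matrices made with Cell Ranger on mm10, per the labels' protocol. Version 4.0.0 is named in the headers of the matrices and in the submitters' processing notes, another version in the labels' protocol, and the authors' cell labels were not used here. Barcodes with at least 1000 UMIs and under 7% mitochondrial UMIs were kept, and a barcode in both libraries kept its copy with more UMIs. No doublets were removed: the automatic threshold of Scrublet (scanpy 1.11.5) marked 2 donor and 135 recipient barcodes (0.0317% and 3.57%), and removal of the highest 5.06% and 3.03% of scores was an alternative. Other cells with Cdh5 were lymphatic with at least 3 lymphatic genes, or else took the class of arterial, aerocyte or general capillary genes (6 each) with the most genes detected, at least 3, which left 516 cells in no class. UMIs were summed per library and class and scaled to CPM (Python 3.11.15, numpy 2.4.6, scipy 1.17.1, pandas 2.3.3), which weights deep cells more. Shares carry Clopper-Pearson, levels Poisson and ratios exact conditional intervals; with 1 library per group no test was run. A gene was measured with at least 20 UMIs in the sums compared, and a sum of 0 was replaced by a floor of 3 counts. Calls were checked on simulated Poisson counts without spread between cells, mixed cells or library differences, so this check covers counting error only. Named genes reached 50 CPM in the higher sum and were the 20 largest and 10 smallest identity ratios, ranked by the library nearer to 1, and the 10 largest ratios each way between libraries with at most 20% of UMIs from 1 cell; list members were named too. Mitochondrial, ribosomal, haemoglobin, sex-linked and unnamed genes were left out of that naming. The members and gene lists were chosen with earlier results of these data known. The reporter transcript was not analysed here, and a few genes are not reported here. Alternatives varied the number of rule genes, the filters, barcode copies, doublets, depth, summing, scaling, minimum counts, comparison class and fold limit.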

Additional observations from a re-analysis of the deposited data

How the results depend on the processing

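The cut on rule genes and depth set the venous shares. These were 5.66% and 8.08% of donor and recipient endothelium with at least 2 rule genes, 1.41% and 4.33% with at least 4, and 1.62% and 4.60% when the rule was applied to cells thinned to 3000 UMIs. The recipient share was higher under all of these. The identity counts moved by more than 1.5 times under 2 settings, to 207 genes higher with at least 100 UMIs in both sums and to 192 lower against general capillary cells alone. The donor and recipient counts depended most on which cells were used. Genes higher in donor cells were 65 with at least 4 rule genes, 68 on thinned cells, 82 without cells holding aerocyte genes, 67 without mixed cells, 13 without cells holding 3 or more genes of another endothelial class (23 donor and 29 recipient cells left), 28 in cells with 5 or 6 rule genes, 59 with at least 100 UMIs and 537 at a 1.5-fold limit with an interval excluding 1. Genes higher in recipient cells were 234 with at least 2 rule genes, 82 with at least 4, 83 with both copies of shared barcodes left out, 99 on thinned cells, 51 without mixed cells, 39 without cells of another class, 59 in cells with 5 or 6 rule genes, 45 with at least 100 UMIs and 453 at the 1.5-fold limit. The settings without aerocyte-gene or mixed cells and with 5 or 6 rule genes were chosen after the data had been seen. Fewer cells enter most of these settings; other causes were not tested.

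Of log2 ratios that reversed, with at least 2 rule genes Ager (1.87) and Lyz2 (2.38) were higher in donor venous than other endothelial cells and Ager (2.55) higher in donor than recipient cells. Cbr2 was higher in recipient venous cells with both barcode copies out (0.36), on thinned cells (0.40) and against general capillary cells (1.43). Against the latter, Serpina3m (2.37), Fibin (2.36 and 0.75), Gpnmb (1.78 and 0.016), Lmntd1 (1.17) and Tbx2 (1.24) reversed too. Against equal weights of 3 classes, Fabp4 (-0.0062) and Lyz2 (0.33) reversed in the donor library. Between donor and recipient cells Ednrb reversed without aerocyte-gene cells (-0.23) or mixed cells (-0.39), and Apoe (0.57) and Cd74 (-0.64) without cells of another class. The red cell and platelet median reversed with at least 100 UMIs (-1.08). Of the other values for named genes, 807 identity and 471 donor and recipient ratios stayed within their counting intervals, which are wide for genes with few UMIs. Another 259 and 94 left them and were not counted as reversed. Of list medians, judged by a fixed limit and not by counting error, 135 moved little and 12 more. Median-of-ratios scaling moved all genes by -0.01, 0.02 and 0.08 log2 at most. No paired analysis was possible because the labels give no replicate numbers and each group is 1 library; with 1 library per group, none could be left out. Depth limits genes under 20 UMIs in these small groups, which were not measured.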
